A study of Mus musculus with 8 samples.

Results

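The 36 genes described here encode proteins that bring cells through G2 and mitosis. They were chosen by name from a list of G2/M and mitotic genes, and each of the 36 matched 1 row among the 50600 rows of the expression table. In the cell cycle, cyclins A and B switch on CDK1, the CDC25 phosphatases remove its inhibitory phosphates, the Polo, Aurora and BUB kinases build and monitor the spindle, and the anaphase-promoting complex (APC/C) then destroys the cyclins so that the cell can divide. ESCs cycle fast with a short G1, and transcripts of this module are abundant in them. Many of its genes are transcribed from promoters with CCAAT boxes and a CHR (cell cycle genes homology region), an element read by the DREAM and B-MYB-MuvB complexes, and are repressed in G1 and active in G2.

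All 8 RNA-seq libraries came from feeder-free mouse ESCs in 2i/LIF medium at passage P12 (OG2 cells of genotype c-Jun_TetOn_mESC, here JUN TetON ESCs, of mixed strain: 129SVJ 1/2, C57B6 3/8 and CBA 1/8), in which doxycycline switches on a JUN transgene. Every group, the controls included, received doxycycline at 2 µg/ml, and the groups differed in what was added for 6 h: DMSO, PFI-3 (an inhibitor of the BRG1 bromodomain), BI-9564 (an inhibitor of the BRD7 and BRD9 bromodomains), or both compounds (P+B). The labels give 6 h of treatment, whereas the paper's legend for this RNA-seq gives JUN induction for 8 h and compounds for 6 h. Each group had 2 libraries. The labels give no compound dose, and in the paper's colony assay each compound had a lower dose in the combination than alone. Comparisons of P+B with a single compound, or with the sum of both, therefore cannot separate dose from combination. Cells without doxycycline were not analysed here. The comparisons therefore ask what bromodomain inhibition did to mitotic transcripts in cells that all had JUN induced.

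Values are TPM (a transcript level scaled to a fixed total and corrected for gene length) rounded to whole numbers. The libraries summed to between 991574 and 991897, and since TPM keeps no read depth, the counting error behind a value is unknown. Jun itself ranged from 1569 to 3011 and was higher in replicate 2 of every group, while the summed level of 10 ES cell markers, from 3566 to 5484, was lower in replicate 2 of every group. A list of 7 study genes with Jun summed to 2351 and 3250 in DMSO and 1934 and 2586 in PFI-3. It summed to 2459 and 3426 in BI-9564 and 1949 and 2556 in P+B. All 6 tested genes of this list were lower in libraries with PFI-3 than without (log2 -0.39 to -0.02), none with a limma adjusted p under 0.05. The part of this difference in the results was not tested. Of the members, 15 of 36 were higher in replicate 2, with a median difference of -0.02 on the log2 scale. Of 10 fibroblast or feeder markers and 8 endoderm markers none passed the filter, and no library had one of them above 6. Per library, the fibroblast or feeder list summed to between 2 and 9 and the endoderm list to between 2 and 6. Among these markers, Col1a2, Dcn, Lum, Postn, Sox7, Foxa2 and Afp were at 0 in all libraries. Of 8 mesoderm and trophoblast markers, the summed level was 17 and 19 in DMSO and 27 and 31 in P+B; its part in the results was not tested. In bulk RNA, fewer cells in mitosis and less transcript per cell cannot be told apart.

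Promoters are shown for the 4 members with the largest P+B change among those whose promoter held a CHR-type hexamer (TTTGAA or its reverse complement TTCAAA). Of these, 2 had a lower level with P+B (Anln and Prc1) and 2 a higher level (Kif23 and Mki67). For Kif23 and Mki67 the adjusted p in limma was not under 0.05 (0.0855 and 0.074). The next members by size, Cdca3 (-0.30) and Ect2 (-0.28), were both lower, so the balance of directions follows from showing 4. Each stretch runs from 150 bases before to 28 bases after the start annotated by RefSeq (GRCm38.p6), 5′ to 3′ on the gene's strand; capitals mark the hexamer and the CCAAT box (CCAAT, or ATTGG on the other strand). Anln lies at chr9:22389179-22389356 (minus strand), Prc1 at chr7:80294301-80294478 (plus strand, 1 of 2 annotated starts), Kif23 at chr9:61946772-61946949 (minus strand) and Mki67 at chr7:135716352-135716529 (minus strand).
Anln: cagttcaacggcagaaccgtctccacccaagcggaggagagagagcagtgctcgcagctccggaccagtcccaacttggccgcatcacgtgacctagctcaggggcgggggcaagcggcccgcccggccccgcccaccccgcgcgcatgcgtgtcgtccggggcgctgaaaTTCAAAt
Prc1: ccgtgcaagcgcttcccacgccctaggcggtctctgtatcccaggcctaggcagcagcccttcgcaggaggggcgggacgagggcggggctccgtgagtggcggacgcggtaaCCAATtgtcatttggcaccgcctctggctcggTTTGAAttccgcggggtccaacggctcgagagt
Kif23: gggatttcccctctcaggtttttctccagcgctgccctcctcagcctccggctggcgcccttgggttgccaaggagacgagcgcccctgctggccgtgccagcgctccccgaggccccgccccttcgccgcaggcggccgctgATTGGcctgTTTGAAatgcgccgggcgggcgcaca
Mki67: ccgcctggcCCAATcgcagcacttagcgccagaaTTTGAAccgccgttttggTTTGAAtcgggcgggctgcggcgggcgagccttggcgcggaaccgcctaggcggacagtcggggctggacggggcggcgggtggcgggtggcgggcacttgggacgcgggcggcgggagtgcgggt

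In these stretches Anln had 1 hexamer and no CCAAT, Prc1 and Kif23 had 1 hexamer and 1 CCAAT each, and Mki67 had 2 hexamers and 1 CCAAT. These counts depend on where the stretch was cut. Anln has another hexamer at 29 to 34, just past the printed end. Mki67 has further CCAAT boxes starting at -188 and -166, and its hexamers start at -116 and -98. Promoter entries of 300 bases (250 before to 50 after the start) matched 30 of the 36 members; Ccna2, Cdc25c, Aurkb, Kif20a, Tpx2 and Dlgap5 had none. The hexamer on either strand was in 22 of the 30 (73.3%), against 13.8% of the 7777 tested genes with an entry and 20.2% of all 27025 genes in the promoter table. A CCAAT box on either strand was in 26 of the 30 (86.7%), against 44.3% of the tested genes and 41.1% of all genes. Both were in 20 of the 30 (66.7%), against 5.9% of the tested genes and 8.0% of all genes. The end of one motif can share at most 1 letter with the start of the other. Close to the start, from -60 to 40, 19 of the 30 members (63.3%) had the hexamer, against 3.8% of the tested genes.

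**Figure D1:**
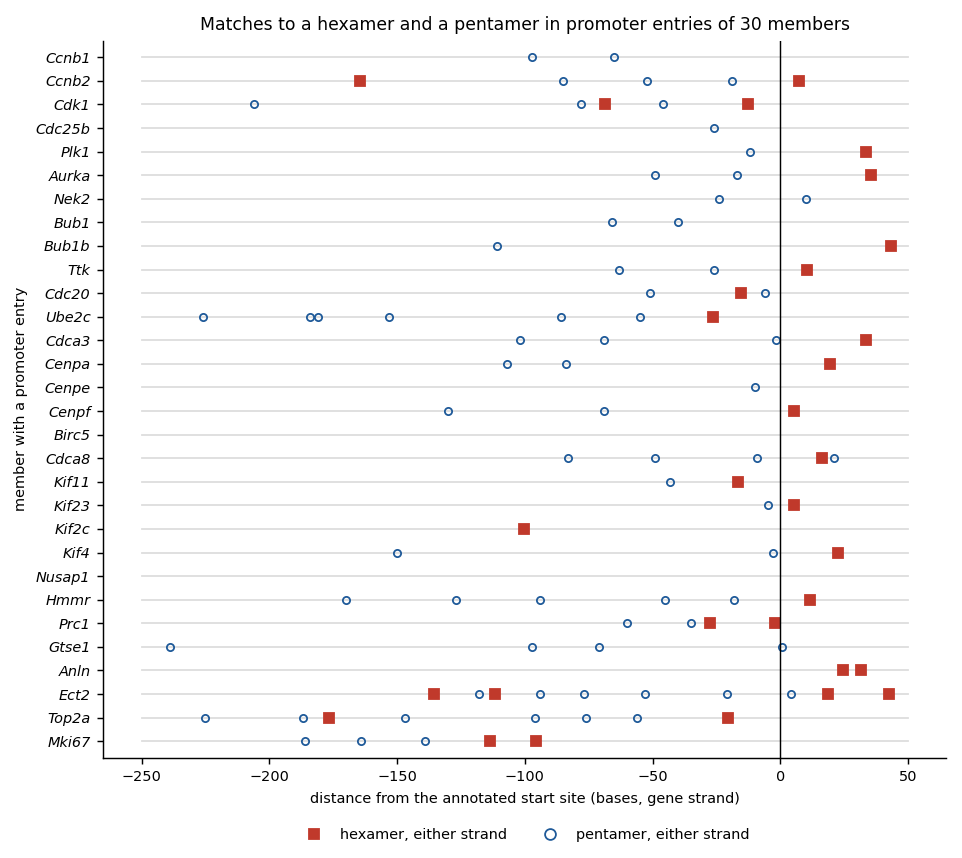
Positions of the hexamer (filled squares) and the CCAAT pentamer (open circles), each on either strand, in bases from the annotated start site on the gene's strand, for the 30 members with a promoter entry; where a gene has 2 entries (Prc1, Gtse1, Ect2), both are overlaid relative to their own start. In 19 of 30 members a hexamer lies between -60 and 40, while Birc5 and Nusap1 have neither motif.

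Members with and without the hexamer overlapped in their response. With P+B, the 22 members with it had log2 fold changes from -0.55 to 0.37 (9 above and 13 below 0, median -0.04), and the 8 without it from -0.24 to 0.62 (6 above and 2 below 0, median 0.09). These are descriptions of letters and of fold changes; binding of any factor was not measured.

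The members were high and even across libraries. Their mean levels had a median of 127, against 30.1 for the 10222 tested genes (mean of at least 5), and 34 of 36 lay above the median tested gene. Summed over the members, the libraries held 5337 and 5340 in DMSO, 5261 and 5058 in PFI-3, 5358 and 5231 in BI-9564, and 5060 and 5142 in P+B. Every compound library except 1 BI-9564 library was below both DMSO libraries, with a mean of 5101 ± 58.0 with P+B against 5338.5 ± 2.12 with DMSO (SD, n = 2 each), and 2 libraries against 2 cannot go below p = 0.333 in an exact two-sided permutation test. The highest library exceeded the lowest by 1.27-fold for the median member and by less than 1.5-fold for 30 of the 36. The spread within groups was small: the SD of log2 values had a median of 0.081 for the members and 0.172 for all tested genes. The members also had higher levels than most tested genes, and genes of matched level were not compared.

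Against DMSO, the members split in direction with each treatment. With P+B, 17 members were above and 19 below DMSO (47.2% above, against 58% of all tested genes). Their median log2 fold change was -0.03, against 0.06 over all tested genes. With PFI-3 the split was 18 and 18 (median 0.00, all genes 0.02 with 54.1% above). With BI-9564 it was 18 and 18 (median -0.01, all genes 0.02 with 53.7% above). The SD between replicate libraries of the members' median deviation was 0.035, and the gap between the members and all genes was not tested. The 95% interval lay within 1.5-fold in either direction for 29 of 36 members with P+B, 33 with PFI-3 and 31 with BI-9564, so for most of the module a larger change was outside the interval. These splits depended on scaling: with each library centred on its median gene, the members above and below DMSO numbered 11 and 25 for P+B, 10 and 26 for PFI-3, 13 and 23 for BI-9564, and the genes called with P+B over the whole table moved from 131 higher and 278 lower to 86 and 401. A gene was called when limma's adjusted p was under 0.05 and its fold change at least 1.5; "passed" below means the adjusted p alone. The labels do not say that the 2 libraries of a group came from separate cultures, so the p-values measure the spread between these libraries, which may be technical. The 3 treatments share the DMSO libraries.

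With P+B, 1 of 36 members was called, Cdc25c, where 4% of all tested genes were called. By the adjusted p alone, 4 of 36 passed (Cdc25c and Gtse1 higher, Prc1 and Anln lower), against 4.89% of all genes. Cdc25c was no longer called without DMSO replicate 1 or 2, P+B replicate 1 or 2, or PFI-3 replicate 1 or 2 (adjusted p = 0.0953, 0.116, 0.102, 0.142, 0.0567 and 0.0562 in that order), and Anln failed the test when any of the 8 libraries was left out (adjusted p from 0.0502 to 0.169). Prc1 failed without either DMSO or either P+B library (0.0856 to 0.151), and Gtse1 without a DMSO, BI-9564 or P+B library (0.0583 to 0.138). With PFI-3 no member was called (0% of all genes) and with BI-9564 none (0.108%). Between treatments, no member was called for P+B against PFI-3 (1.31% of all genes), P+B against BI-9564 (0.196%) or BI-9564 against PFI-3 (0.108%), and Gtse1 passed for P+B against PFI-3 (1.43%), though not when any one library was left out. At an unadjusted p under 0.05 in limma, 13 of 36 members differed with P+B (22.6% of all genes), 4 with PFI-3 (6.79% of all genes), 8 with BI-9564 (14.9%), 4 for P+B against PFI-3 (16.6%), 4 for P+B against BI-9564 (7.97%), 5 for BI-9564 against PFI-3 (14.2%) and 1 against the sum of the single compounds (3.26%). When the replicate number entered as a block, 8 members passed with P+B (11.6% of all genes): Cdc25c, Kif23, Gtse1 and Mki67 higher, and Cdc20, Cdca3, Prc1 and Anln lower. With the block, Cdc25c, Gtse1 and Mki67 passed higher with BI-9564 (2.78%) and Cdc25c was called there (1.53%). In the plain ranges, both P+B libraries were outside the 2 DMSO libraries for 23 members, 9 higher and 14 lower, against 47.5% of all genes (28.6% higher and 18.9% lower). Over all 4 groups, 1 member, Gtse1, differed in the F test (1.94% of all genes; adjusted p = 0.0312), and 6 did with the block (7.5%): Gtse1, Anln, Cdc20, Mki67, Cdc25c and Prc1.

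**Figure D2:**
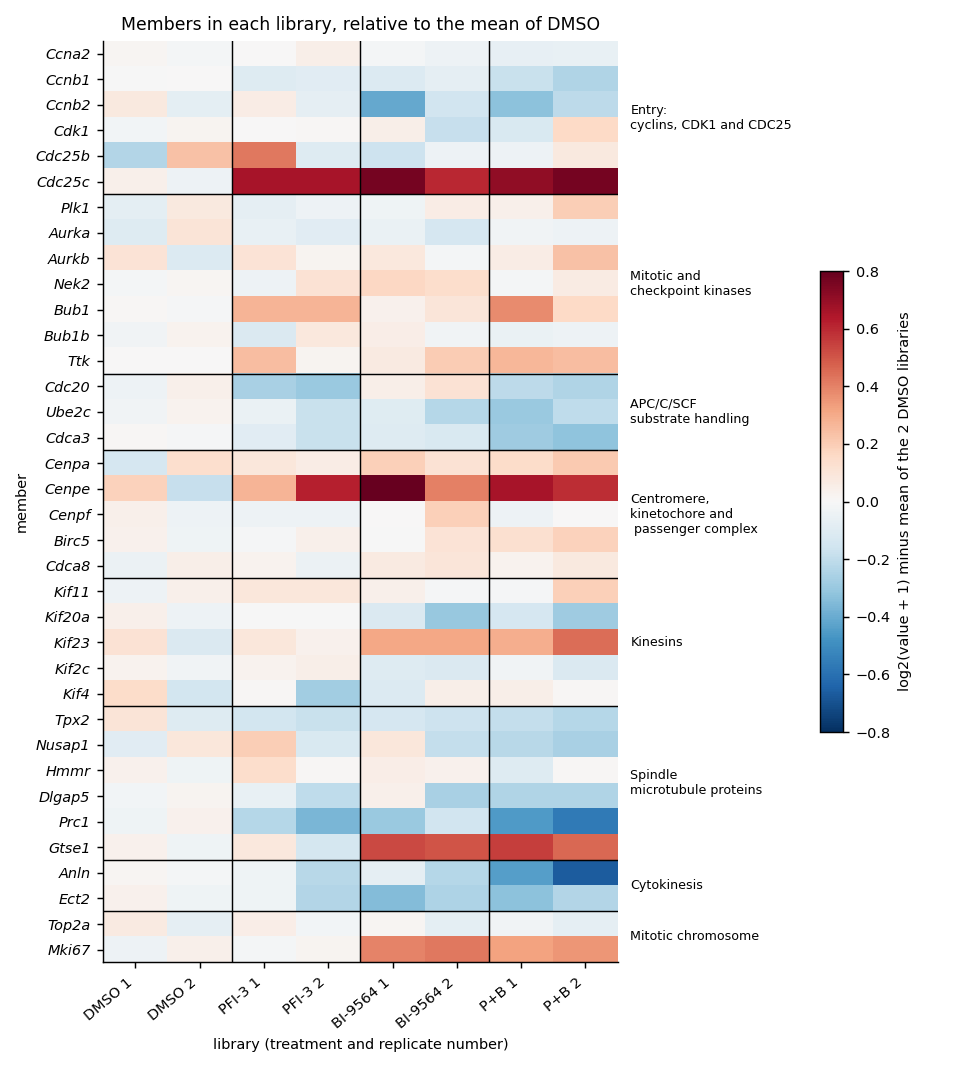
The 36 members (rows, by role) in the 8 libraries (columns), coloured by log2(value + 1) minus the mean of the 2 DMSO libraries; red is higher, blue is lower. Cdc25c is red in all 6 compound libraries, Gtse1, Kif23 and Mki67 in the 4 libraries with BI-9564, and Prc1 and Anln are darkest blue in the P+B libraries.

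**Figure D3:**
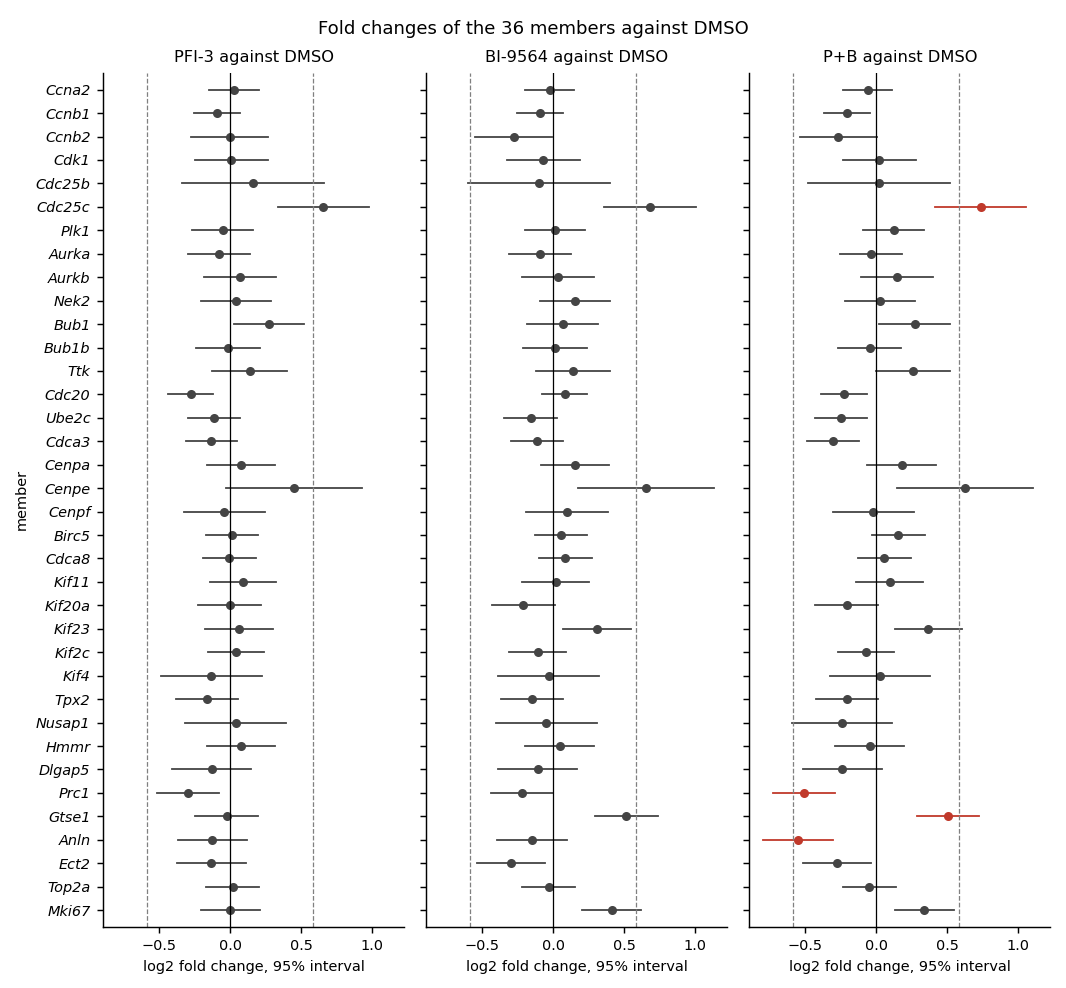
Log2 fold changes of each member against DMSO with 95% intervals, for PFI-3, BI-9564 and P+B; dashed lines mark 1.5-fold and red marks an adjusted p under 0.05. Only Cdc25c, Prc1, Gtse1 and Anln with P+B are red.

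Among the cyclins, CDK1 and the CDC25 phosphatases, 1 of 6 members was called with P+B (4% of all tested genes) and the group median was -0.02. Cdc25c encodes a phosphatase that activates CDK1 at mitotic entry. It is the member with the lowest mean level and read 16 and 15 in DMSO, 25 and 25 in PFI-3, 27 and 24 in BI-9564, and 26 and 27 in P+B. All 6 libraries with a compound were above both DMSO libraries; both P+B libraries were above both PFI-3 libraries, and the BI-9564 libraries overlapped both. The log2 fold change was 0.74 ± 0.14 (SE) with P+B (adjusted p = 0.0261), 0.66 ± 0.14 with PFI-3 (adjusted p = 0.493) and 0.68 ± 0.14 with BI-9564 (adjusted p = 0.115; 0.0462 with the block). Against the sum of the single compounds the log2 difference of P+B was -0.60 (95% interval -1.06 to -0.15, adjusted p = 1), and no member was called in that contrast (0% of all genes). The contrast presumes that each compound had the same dose in P+B as alone, which is not known. Cdc25b, a paralog of Cdc25c and a second CDK1 activator, was 20 and 28 in DMSO, 32 and 22 in PFI-3, 21 and 23 in BI-9564, and 23 and 25 in P+B, with P+B within the DMSO range. Its P+B interval was the widest, from -0.48 to 0.52. The exons of Cdc25c share bases with Gm3550 on the opposite strand, and the sources used here do not give whether counting used strand.

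Ccnb2, a B-type cyclin, was 141 and 126 in DMSO, 139 and 127 in PFI-3, 100 and 120 in BI-9564, and 106 and 115 in P+B. The 4 libraries with BI-9564 were all below the other 4, but the difference with P+B (-0.27 ± 0.12) did not pass (adjusted p = 0.224). Cdk1, the kinase itself, was 308 and 318 in DMSO, 314 and 315 in PFI-3, 323 and 275 in BI-9564, and 288 and 350 in P+B, so its 2 P+B libraries spanned the DMSO range. Ccna2 stayed between 159 and 172 over all 8 libraries, the smallest ratio of the highest to the lowest library among the 36 (1.08-fold). Ccnb1 was 276 and 277 in DMSO and from 234 to 263 in the 6 libraries with a compound, all below both DMSO libraries, and both P+B libraries were the lowest. With P+B it did not pass in limma, except with each library centred on its median gene (-0.30, adjusted p = 0.0449). That scaling lowered the median over all genes as well, from 0.06 to -0.03.

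No member of the mitotic and checkpoint kinases passed, with a group median of 0.12 and 5 of 7 above 0 with P+B. Bub1, a spindle checkpoint kinase at kinetochores, read 64 and 63 in DMSO, 77 and 77 in PFI-3, 65 and 68 in BI-9564, and 83 and 71 in P+B. All 4 libraries with PFI-3 were above the other 4, and the log2 fold change of 0.27 ± 0.11 with P+B did not pass (adjusted p = 0.19). Bub1b, which holds the APC/C inactive until chromosomes are attached, was 119 and 124 in DMSO, 112 and 129 in PFI-3, 126 and 119 in BI-9564, and 117 and 118 in P+B. Its log2 fold change was near 0 (-0.05 ± 0.10). The others spanned 183 to 222 (Plk1, which drives mitotic entry and spindle formation), 132 to 156 (Aurka, of the centrosome), 104 to 132 (Aurkb, of the chromosomal passenger complex), 51 to 59 (Nek2, which separates centrosomes) and 58 to 70 (Ttk, the checkpoint kinase also called MPS1).

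The 3 members that handle degradation at mitosis were all below DMSO with P+B (median -0.25) without passing. All 3 passed in limma when libraries were centred on their median gene (Cdc20 adjusted p = 0.0352, Ube2c 0.0459, Cdca3 0.0271). That scaling also moved the median over all genes with P+B from 0.06 to -0.03. The share of all genes that passed by the adjusted p alone under it was not computed. Cdc20, the activator of the APC/C at anaphase, read 402 and 425 in DMSO, 345 and 336 in PFI-3, 427 and 447 in BI-9564, and 357 and 349 in P+B. All 4 libraries with PFI-3 were below the other 4, which included both BI-9564 libraries. With P+B the log2 fold change was -0.23 ± 0.07 (adjusted p = 0.105; 0.0418 with the block), and for BI-9564 against PFI-3 it was 0.36 ± 0.07 (adjusted p = 0.0924; 0.0281 with the block). Ube2c, the ubiquitin-conjugating enzyme of the APC/C and the highest member, was 509 and 530 in DMSO, 501 and 459 in PFI-3, 486 and 444 in BI-9564, and 423 and 451 in P+B. Both P+B libraries were below every DMSO and PFI-3 library (-0.25 ± 0.08, adjusted p = 0.117). Cdca3, also called Tome-1 and a trigger of mitotic entry, was 177 and 174 in DMSO, 165 and 155 in PFI-3, 163 and 161 in BI-9564, and 144 and 140 in P+B. Its 2 P+B libraries were the lowest of the 8 (-0.30 ± 0.08, adjusted p = 0.0686; 0.0241 with the block). Cdc20 and Ube2c have exons that share bases with genes on the opposite strand (Elovl1 and Tnnc2).

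Of the centromere and passenger complex members, 4 of 5 were above 0 with P+B (median 0.16) and none passed. Cenpe, a kinetochore motor that moves chromosomes to the metaphase plate, read 30 and 23 in DMSO, 32 and 41 in PFI-3, 50 and 35 in BI-9564, and 42 and 40 in P+B. All 6 compound libraries were above both DMSO libraries, but the replicates of BI-9564 differed by 15 in value, and 0.62 ± 0.21 with P+B did not pass (adjusted p = 0.129). Cenpf, which binds kinetochores in G2 and mitosis, was 35 and 33 in DMSO, 33 and 33 in PFI-3, 34 and 39 in BI-9564, and 33 and 34 in P+B. Cenpa, the centromeric histone H3 variant, ranged from 128 to 163, Birc5 (survivin) from 196 to 228 and Cdca8 (borealin) from 160 to 177.

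Among the kinesins none passed with P+B (median 0.03). Kif23, the motor of the central spindle that is needed for cytokinesis, read 130 and 111 in DMSO, 128 and 123 in PFI-3, 149 and 149 in BI-9564, and 147 and 164 in P+B. The 4 libraries with BI-9564 were all above the 4 without, and the log2 fold change with P+B was 0.37 ± 0.10 (adjusted p = 0.0855; 0.0485 with the block). Kif20a, another central spindle kinesin, went the other way, with 174 and 165 in DMSO, 169 and 169 in PFI-3, 156 and 137 in BI-9564, and 154 and 139 in P+B; its difference of -0.21 ± 0.10 did not pass (adjusted p = 0.247). Its exons share bases with Cdc23 on the opposite strand. Kif11, which pushes spindle poles apart, ranged from 84 to 99, Kif2c, a microtubule depolymerase, from 104 to 117 and Kif4, a chromokinesin, from 31 to 42.

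Among the 6 spindle microtubule proteins 1 passed in each direction with P+B, and the group median was -0.22. Gtse1, a microtubule-binding protein of G2 and mitosis that also restrains p53, read 164 and 156 in DMSO, 170 and 145 in PFI-3, 231 and 227 in BI-9564, and 235 and 220 in P+B. The 4 libraries with BI-9564 lay at least 50 above the 4 without. The log2 fold change was 0.50 ± 0.10 with P+B (1.42-fold, adjusted p = 0.0266), 0.51 ± 0.10 with BI-9564 (adjusted p = 0.0893; 0.0222 with the block) and -0.03 ± 0.10 with PFI-3, and 0.53 ± 0.10 for P+B against PFI-3 (adjusted p = 0.0431). P+B and BI-9564 alone differed by -0.01 (95% interval -0.23 to 0.21). Prc1, which bundles the antiparallel microtubules of the central spindle, read 181 and 190 in DMSO, 158 and 144 in PFI-3, 151 and 167 in BI-9564, and 135 and 125 in P+B. Its 2 P+B libraries were the lowest of the 8, and each single compound lay between (-0.30 ± 0.10 with PFI-3 and -0.22 ± 0.10 with BI-9564, adjusted p = 0.594 and 0.331). With P+B it fell by 0.51 ± 0.10 (adjusted p = 0.0249), and against the sum of the single compounds it differed by 0.01. Its exons share bases with Rccd1 on the opposite strand. The other 4 did not pass: Tpx2, an activator of Aurora A, ranged from 124 to 156, Nusap1 from 39 to 54, Hmmr from 58 to 69 and Dlgap5 from 72 to 89.

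Both cytokinesis members were below DMSO with P+B. Anln, the anillin scaffold of the contractile ring, read 290 and 283 in DMSO, 280 and 246 in PFI-3, 272 and 244 in BI-9564, and 211 and 180 in P+B. The 2 P+B libraries were the lowest of the 8, below every library with a single compound. The log2 fold change was -0.55 ± 0.11 with P+B (0.68-fold, adjusted p = 0.0277), -0.13 ± 0.11 with PFI-3 and -0.15 ± 0.11 with BI-9564 (adjusted p = 0.905 and 0.549). With the block, P+B was also lower than PFI-3 alone (-0.43, adjusted p = 0.0146) and BI-9564 alone (-0.40, adjusted p = 0.046), where without it neither passed (adjusted p = 0.106 and 0.344); with the block 3 members passed for P+B against PFI-3 (5.62% of all genes) and Anln alone for P+B against BI-9564 (0.968%). Ect2, the exchange factor that activates RhoA for the ring, was 112 and 107 in DMSO, 107 and 93 in PFI-3, 86 and 92 in BI-9564, and 87 and 93 in P+B (-0.28 ± 0.10 with P+B, adjusted p = 0.163).

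The 2 members that act on chromosomes differed. Mki67, the antigen Ki-67 that coats mitotic chromosomes, read 73 and 77 in DMSO, 74 and 76 in PFI-3, 99 and 101 in BI-9564, and 94 and 96 in P+B. The PFI-3 libraries lay inside the DMSO range and the 4 libraries with BI-9564 at least 17 above it. The log2 fold change was 0.34 ± 0.09 with P+B (adjusted p = 0.074; 0.0309 with the block), 0.41 ± 0.09 with BI-9564 (adjusted p = 0.13; 0.0409 with the block) and 0.00 ± 0.09 with PFI-3. Top2a, the topoisomerase that untangles sister chromatids, was 316 and 285 in DMSO, 312 and 295 in PFI-3, 303 and 284 in BI-9564, and 294 and 286 in P+B, the highest library being 1.11-fold the lowest.

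**Figure D4:**
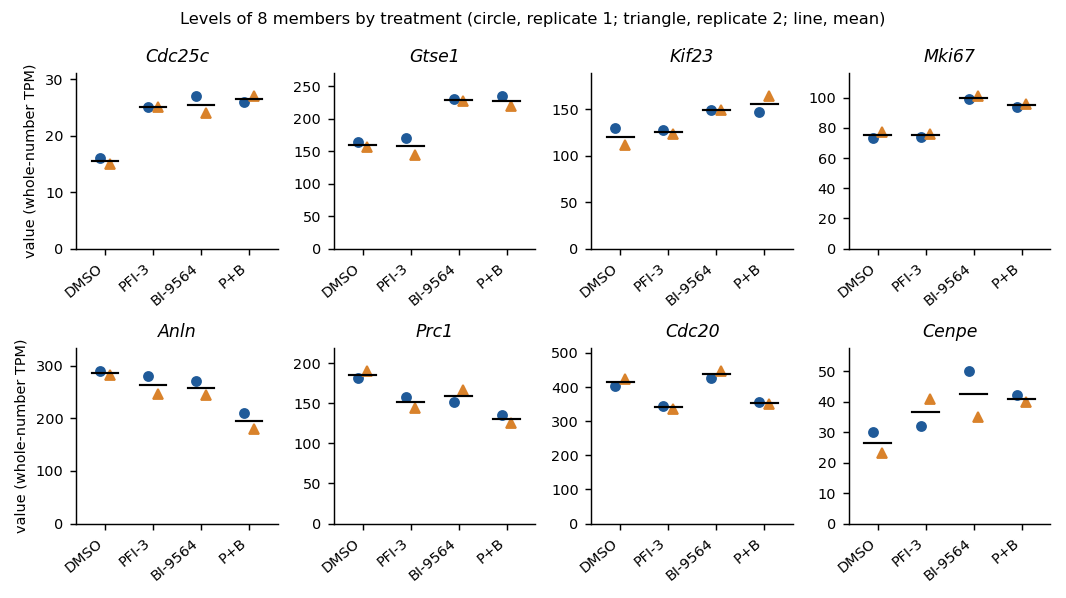
Levels (TPM as whole numbers, axes from 0) of 8 members by treatment; circles are replicate 1, triangles replicate 2, lines the mean of the 2 libraries. Gtse1, Kif23 and Mki67 are higher in both BI-9564 and P+B libraries than in the rest, Cdc20 is lower in the 4 libraries with PFI-3, and Anln and Prc1 are lowest with P+B.

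Since several members followed one compound, the 4 libraries with BI-9564 were compared with the 4 without, and likewise for PFI-3; both comparisons were added after the values had been seen. With BI-9564, 3 of 36 members passed, against 6.74% of all genes: Gtse1 (log2 difference 0.52 ± 0.07, adjusted p = 0.00701), Mki67 (0.37 ± 0.06, adjusted p = 0.0168) and Kif23 (0.31 ± 0.07, adjusted p = 0.0464), each higher in 4 of 4 libraries. At an unadjusted p under 0.05, 12 members differed (24.7%). Gtse1 passed without any one of the libraries, whereas Mki67 (adjusted p from 0.0527 to 0.0681) and Kif23 (0.06 to 0.138) did not pass when any one was left out. Their ranges and those of Ccnb2 and Kif20a, both lower, did not overlap, which is 5 of 36 members against 13.8% of all genes. With the block 6 members passed (14.8%): Cdc25c, Kif23, Gtse1 and Mki67 higher, Kif20a and Anln lower. For Cdc25c and Anln the libraries with and without BI-9564 overlapped. Cdc25c was about as far above DMSO with PFI-3 alone (0.66) as with BI-9564 alone (0.68). With PFI-3 no member passed in limma (0.401% of all genes), 6 had an unadjusted p under 0.05 (10.8%), Bub1 (higher) and Cdc20 (lower) did not overlap (3.2%), and Cdc20 and Anln passed with the block (2.03%), with Cdc20 at -0.29 ± 0.05 (adjusted p = 0.0599; 0.0135 with the block). For BI-9564 against PFI-3, Cdc20, Gtse1 and Mki67 passed with the block, each higher with BI-9564 (2.51%). The 10 ES cell markers differed in direction between the compounds. For BI-9564 against PFI-3, all 10 were lower (median -0.64, 50.4% of all genes higher). There 1 of them, Tdgf1, was called (0.108% of all genes), and 6 were called lower with the block (1.48%). All 10 were lower in the libraries with BI-9564 than in those without (median -0.24, 55.5% of all genes higher), and 1 of them passed. In the libraries with PFI-3, 9 of 10 were higher than in those without (median 0.19, 56.1% of all genes higher). None passed there, and 2 were called higher with the block (1.05% of all genes called in either direction). With PFI-3 alone, 9 of 10 were higher than with DMSO (median 0.36, 54.1% of all genes higher) and none passed. With P+B, 4 were above and 6 below DMSO (median -0.12). Of these markers, Tdgf1, a NODAL co-receptor, was called lower with P+B (163 and 156 in DMSO, 221 and 196 in PFI-3, 101 and 76 in BI-9564, and 82 and 84 in P+B, at -0.93, adjusted p = 0.00916) and passed in the pooled BI-9564 comparison (-1.09, adjusted p = 0.00221). Esrrb, an ES cell transcription factor, was called higher with P+B with the block only (0.74, adjusted p = 0.12, and 0.00486 with the block). The part of the markers in the members' differences was not tested.

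Other genes of the pathway were read from lists chosen by function. Of 15 transcriptional regulators of G2/M genes none was called with P+B (4% of all tested genes), 8 were above and 7 below DMSO, and their median was 0.02. Mybl2, which encodes B-MYB, was 329 and 286 in DMSO, 315 and 294 in PFI-3, 246 and 209 in BI-9564, and 243 and 235 in P+B. The 4 libraries with BI-9564 were all below the 4 without, at -0.39 ± 0.07 (adjusted p = 0.0236), while the difference with P+B alone was -0.36 ± 0.11 (adjusted p = 0.0929; 0.0152 with the block). Foxm1, another activator of these genes, was 111 and 117 in DMSO and 83 and 96 in P+B (-0.35 ± 0.11, adjusted p = 0.117; 0.0291 with the block). On the other side, E2f5 (0.60), Lin54 (0.49) and Lin52 (0.47) had the most positive values of the list with P+B, and none of these passed (adjusted p = 0.144, 0.171 and 0.441). Nfyc, a subunit of the factor NF-Y that binds CCAAT boxes, was 95 and 98 in DMSO, 94 and 90 in PFI-3, 121 and 122 in BI-9564, and 110 and 102 in P+B. It passed higher in the libraries with BI-9564 (0.27, adjusted p = 0.0453). In that comparison, added after the values were seen, 1 of the 15 regulators passed higher (Nfyc) and 1 lower (Mybl2), against 2.58% and 4.16% of all genes. Leaving out single libraries was not tried for these genes.

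Of 10 tested inhibitors of CDK1 and of mitotic entry, 1 was called higher and 2 lower with P+B. Over all 10222 tested genes, 131 were called higher and 278 lower (4%). Of the 10 inhibitors, 6 lay above and 4 below DMSO (median 0.19). Sfn (14-3-3 sigma, which holds CDK1-cyclin B in the cytoplasm) was 832 and 733 in DMSO, 727 and 596 in PFI-3, 597 and 457 in BI-9564, and 336 and 235 in P+B (change of -1.47 on the log2 scale, adjusted p = 0.00532). Gadd45a, a growth arrest gene, was 87 and 112 in DMSO, 62 and 73 in PFI-3, 62 and 76 in BI-9564, and 46 and 47 in P+B (-1.07, adjusted p = 0.0098). Cdkn1a, which encodes the CDK inhibitor p21, went up instead: 90 and 77 in DMSO, 96 and 73 in PFI-3, 148 and 141 in BI-9564, and 131 and 137 in P+B (0.68, adjusted p = 0.0348). Its 4 libraries with BI-9564 were all above the rest. Gadd45g, a relative of Gadd45a, was called higher as well with the block (8 and 6 in DMSO, 10 and 7 in PFI-3, 11 and 11 in BI-9564, and 14 and 12 in P+B, at 0.82, adjusted p = 0.105, and 0.0498 with the block). With the block 7.02% of all genes were called with P+B.

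Among 35 other spindle and cytokinesis genes, Kif18b was called higher (55 and 52 in DMSO, 80 and 85 in P+B, adjusted p = 0.0209) and Nek6 lower (51 and 40 against 23 and 25, adjusted p = 0.017). That is 1 higher and 1 lower of the 35 with P+B, where 4% of all tested genes were called. Psrc1, a spindle microtubule protein, was 102 and 99 in DMSO, 80 and 81 in PFI-3, 155 and 182 in BI-9564, and 127 and 130 in P+B, below DMSO with PFI-3 and above it with BI-9564; with P+B it did not pass (adjusted p = 0.0863), and it was called higher than with PFI-3 both for BI-9564 (log2 difference 1.05, adjusted p = 0.0207) and for P+B (0.67, adjusted p = 0.024). For P+B against PFI-3 (1.31% of all genes called), Sfn, Kif18b and Nek6 were called too, in the same direction as against DMSO. Of 40 other kinetochore, centromere and checkpoint genes, 1 was called with P+B (4% of all tested genes). It was Mis18a, which helps to load the centromeric histone and was higher (31 and 28 against 44 and 47, adjusted p = 0.0356). None was called with P+B among 25 other regulators of mitotic entry and exit (median 0.00), 18 condensin and cohesin genes (median 0.07) or 44 tested G1/S and replication genes (median -0.02). With the block 1 of the G1/S genes was called lower with P+B (7.02% of all genes called). It was the cyclin D gene Ccnd1 (40 and 54 in DMSO, 40 and 58 in PFI-3, 29 and 29 in BI-9564, and 25 and 26 in P+B, at -0.84, adjusted p = 0.0539, and 0.0157 with the block).

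**Figure D5:**
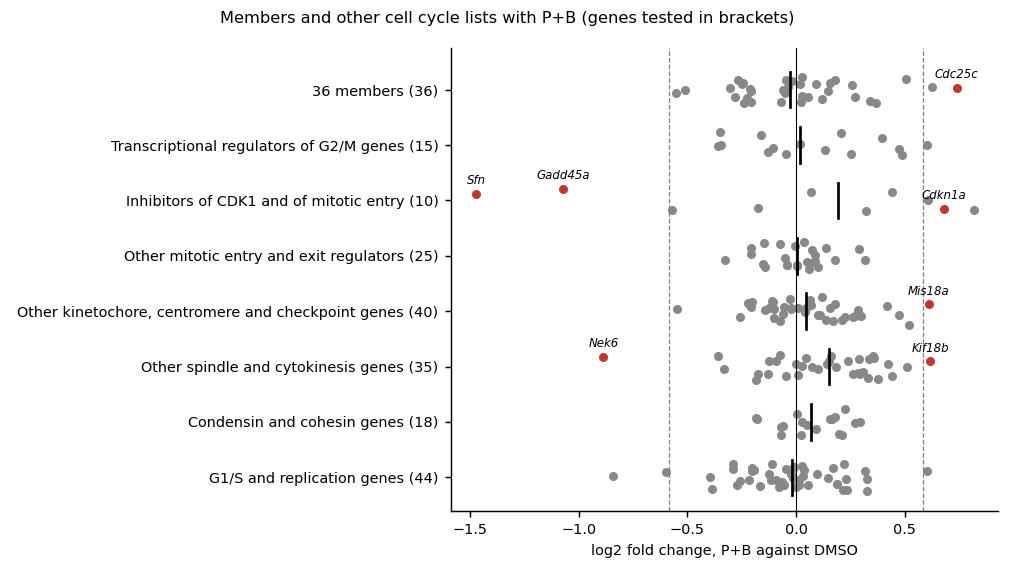
Log2 fold change with P+B against DMSO of each tested gene (points), by list with the number of genes tested in brackets; bars are medians, dashed lines 1.5-fold, and red, named points are called genes. The members centre near 0 (median -0.03), and called genes in other lists lie on both sides.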

How the data were processed

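RNA-seq of JUN TetON ESCs was compared between DMSO, PFI-3, BI-9564 and P+B, with 2 libraries each, grouped by their labels. The authors made the libraries with a VAHTS mRNA-seq kit and sequenced them on a NextSeq500. The submitters' processing notes name bcl2fastq, Bowtie2 2.2.5, RSEM 1.3.0 and mm10; the gene annotation, strand setting and treatment of multi-mapping reads are not given in the sources used here. The deposited table holds for each gene and library a score, namely TPM that was rounded to whole numbers (no value was other than whole), so tools for raw counts were not used and depth is unknown; the precision rests on the spread between libraries.

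After a pseudocount of 1 and log2 transformation, limma 3.58.1 (R 4.3.3; lmFit, then eBayes with a trend) was fitted over 10222 genes with a mean of at least 5, with group as the only term and all 8 libraries in 1 fit. Benjamini-Hochberg adjustment was made within each of 9 comparisons (7 planned and 2 added after the values were seen) and for a moderated F test, over all genes tested. Fold changes are on the log2(value + 1) scale, and intervals are 95%. The pairing by replicate number was checked from deviations around the group means: same-numbered libraries correlated in all 6 pairs of groups (r = 0.143 to 0.236), so blocked values (replicate number as a term) stand beside the results they changed. The script was tested on simulated data.

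The 36 members and the other gene lists were chosen with earlier results of these data known. All 36 are named; values in all libraries are given for 19 of them, namely called members, the 3 highest and 3 lowest by mean level, and the most positive and most negative P+B change in each of 8 role groups. Of the other lists, called genes and Foxm1, Mybl2 and Jun are named by rule; Gadd45g, Ccnd1, Esrrb, E2f5, Lin54, Lin52, Nfyc and the genes of the closing section were named after their values were seen. Gene overlaps are from GENCODE M21 and promoters from RefSeq, both GRCm38, the build named mm10; figures were drawn with matplotlib 3.10.9. Other pseudocounts, filters, scalings, thresholds and leaving out each library were tried.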

Additional observations from a re-analysis of the deposited data

How the results depend on the processing

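Percentages in brackets are the share of all genes under the same alternative. With P+B, the count of members called (1, Cdc25c; 4%) was 2 with quantile normalization (3.78%), 3 with median centring (4.76%), 4 with no fold threshold (4.89%), 0 when only the DMSO and P+B libraries were fitted (0%) and 0 at an adjusted p under 0.01 (1.21%), and from 0 to 1 when a library was left out (0.665% to 2.62%). For BI-9564 it was 1 with the replicate block (1.53%) in place of 0, and for P+B against PFI-3 1 with quantile normalization (1.39%) and 1 with no fold threshold (1.43%) in place of 0. The members with adjusted p under 0.05 in libraries with BI-9564 against those without (3) numbered 6 with the replicate block (14.8%), 1 at an adjusted p under 0.01 (1.14%) and 1 without any one library (1.54% to 2.1%; Gtse1 in all 8 cases, adjusted p from 0.0239 to 0.0411). For PFI-3 (0) they numbered 2 with the replicate block (2.03%), 1 at a mean of at least 20 (0.629%) and 1 with median centring (0.646%). In the F test (1) they numbered 6 with the replicate block (7.5%), 2 with median centring (2.66%), and 0 at a mean of at least 1 (0.87%), with no filter (0.0742%), without a trend (0.245%), at an adjusted p under 0.01 (0.254%) and without any one library (0.00978% to 0.763%). The median of the members was 0.0064 with P+B and 0.050 with BI-9564 under quantile normalization (all genes 0.036 and 0.016). Under median centring it was -0.12, -0.049 and -0.055 with P+B, PFI-3 and BI-9564 (all genes -0.030, -0.029 and -0.023). Leaving out a library gave -0.04 to 0.00, -0.03 to 0.00 and -0.02 to 0.02. The counts for PFI-3, P+B against BI-9564, BI-9564 against PFI-3 and the sum of the single compounds stayed at 0 under every alternative. Without DMSO or P+B replicate 1 or 2, none of the 4 members that passed with P+B did, and log2 fold changes over all libraries left out stayed from 0.69 to 0.78 (Cdc25c), -0.57 to -0.46 (Prc1), 0.46 to 0.55 (Gtse1) and -0.67 to -0.44 (Anln). A group left with 1 library was assumed to vary like the other groups. With 2 libraries a group, the spread limits what a change under 1.5-fold can show.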

Other observations

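Further mitotic genes outside the 36 differed between the 4 libraries with BI-9564 and the 4 without; they are named because they passed in that comparison, which was added after the values had been seen. Hjurp, the chaperone of the centromeric histone, was 97 and 96 in DMSO, 106 and 108 in PFI-3, 144 and 123 in BI-9564 and 140 and 137 in P+B (log2 difference 0.41, limma adjusted p = 0.0162). Kif18b, a kinesin that shortens astral microtubules, was 46 to 55 without and 73 to 85 with BI-9564 (0.62, adjusted p = 0.00616). Ckap2, Kifc1, Cenpn and Fam83d were also higher in the libraries with BI-9564 (0.40, 0.31, 0.35 and 0.55, adjusted p = 0.0361, 0.0427, 0.0343 and 0.0464). Cep55, which recruits the abscission machinery, was lower: 63 and 52 in DMSO, 74 and 67 in PFI-3, 49 and 39 in BI-9564 and 50 and 41 in P+B (-0.50, adjusted p = 0.0398). Of the G1/S genes, Ccnd1 (-0.78, adjusted p = 0.0202) and Cdk2 (-0.37, adjusted p = 0.0317) were lower. Over the 35 other spindle and cytokinesis genes, 5 passed higher and 2 lower in this comparison, and over the 40 other kinetochore, centromere and checkpoint genes 2 passed higher and 0 lower, where 2.58% of all genes passed higher and 4.16% lower. The cause of these differences was not tested.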
